A study of Homo sapiens with 6 samples.

Results

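The genes described here encode the subunits of the oxidative phosphorylation system that are carried in the nucleus. They were chosen by name, with a pattern that takes the NDUF, SDH, UQCR, CYC1, COX and ATP5 names and leaves out names ending in P and a digit as pseudogenes. The pattern matched 89 names, and 87 of the 26255 genes listed remained as members: 37 of complex I, 4 of complex II, 9 of complex III, 18 of complex IV, 15 of complex V and 4 that share a name but are not known as subunits (ATP5S, ATP5SL, ATP5L2 and UQCRHL). NDUFA4 was placed in complex IV, where its protein is found, and COX7A2L, which joins complexes III and IV into larger assemblies, was counted with complex IV as well. Subunits carried in mitochondrial DNA were not analysed here.

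Oxidative phosphorylation is the process by which mitochondria make ATP from the oxidation of nutrients. Complex I oxidizes NADH and complex II oxidizes succinate, and both pass electrons to ubiquinone. Complex III moves them on to cytochrome c and complex IV to oxygen, and the proton gradient that complexes I, III and IV build drives complex V, the ATP synthase. Most subunits are made in the cytosol from nuclear genes and imported, so the balance between subunits depends on the transcripts of many unlinked genes.

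The study asked which transcripts change when Ephexin1, a guanine nucleotide exchange factor encoded by NGEF, is depleted. NCI-H1299 is a human lung cancer cell line. It was given an shRNA plasmid with a U6 promoter, and 3 libraries of cells with a control shRNA (shControl) were compared with 3 libraries of cells with an Ephexin1 shRNA (shEphexin1). Both were kept under drug selection to obtain stable lines, which the study's methods call clones without giving their number for these libraries. The labels do not say whether the 3 libraries of a group came from separate cultures or clones, so the p-values measure only the spread between these libraries. The values were FPKM, fragment numbers scaled by the length of the transcript and the size of the library. Summed per library, they came to 627462, 561335 and 651441 in shControl and to 558737, 516079 and 587222 in shEphexin1. They hold no read counts, and the depth of each library is therefore unknown.

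The targeted gene was measured at 13.3, 11.7 and 16.4 FPKM with the control shRNA and 9.81, 8.25 and 10.5 FPKM with the Ephexin1 shRNA. NGEF was lower in each shEphexin1 library than in each shControl library, at 13.8 ± 2.36 against 9.50 ± 1.14 FPKM (SD, n = 3 each), with a log2 fold change of -0.53 that did not pass the test (SE 0.16, limma adjusted p = 0.103). VIM, a mesenchymal marker of the line, lay between 1979 and 2670 FPKM. None of 8 markers of blood, endothelial, liver, alveolar and islet cells passed the filter on low values, and PTPRC, CD3E, INS and HBB were listed at 0 throughout. The epithelial keratins KRT8 and KRT18, expressed by the line itself, were lower in shEphexin1 by log2 fold changes of -1.07 and -0.94 (limma adjusted p = 0.0304 and 0.0439). Replicate 2 of both groups departed from the others in base composition. In the 2 libraries numbered 2, the deviation of a gene from its group mean fell with the GC content of its transcript (Spearman's rho of -0.70 and -0.77 across genes, described without a test because genes are not replicates), whereas it rose in the other 4. Deviations within a group sum to 0, so the rise in the others partly follows from the fall in replicate 2.

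Transcripts of the oxidative phosphorylation subunits were mostly lower in the shEphexin1 cells. Of the 84 members that had at least 0.1 FPKM in at least 3 libraries and were tested, 72 had a log2 fold change below 0, against 51.1% of the 16020 genes tested. At a limma adjusted p of at most 0.05, with Benjamini-Hochberg adjustment over all genes tested, 14 members fell and 0 rose, where 4.32% of all genes tested fell and 2.69% rose. At an unadjusted limma p of at most 0.05, 34 members were lower and 0 higher, where 12.8% of all genes were lower and 10.5% higher. Only NDUFA4 passed an adjusted p of at most 0.025 with a change of at least 2-fold, and no member did so upward, where 0.999% of all genes did so downward and 0.893% upward. The 3 shEphexin1 libraries lay wholly below the 3 shControl libraries for 35 members and wholly above them for 1, COX6B2, against 15.4% and 12.8% of all genes. The median log2 fold change was -0.28 over the members and -0.0093 over all genes tested. The members COX4I2, COX6A2 and COX8C were too low to be tested. In RNA from bulk cultures, a smaller share of cells with a transcript and less transcript per cell cannot be told apart.

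The number of calls depended on single libraries, while 64 to 77 of the 84 members stayed below 0 whichever library was left out. Without shControl replicate 1 no member passed the limma test, 18 were lower at an unadjusted p of at most 0.05 (8.36% of all genes), and 0.698% of all genes passed. Without shControl replicate 3, shEphexin1 replicate 1 or shEphexin1 replicate 3, the members that passed were NDUFA4, COX7B and NDUFV2 each time, where 1.25%, 1.24% and 1.92% of all genes passed in either direction. Without shControl replicate 2 there were 8, where 3.69% of all genes passed, and without shEphexin1 replicate 2 there were 14, where 8.41% did. After quantile normalization 5 members passed, all lower (NDUFA4, COX7A2L, ATP5G1, ATP5E and NDUFV2), where 498 of the 16020 genes tested passed downward. Counted in either direction, 5.67% of all genes passed, a share near that of the members. Between libraries of the same replicate number, 67 of 84 members were lower in shEphexin1 at replicate 1, 66 at replicate 2 and 75 at replicate 3 (49.6%, 52.4% and 52.6% of all genes), and the median difference was -0.31, -0.20 and -0.32 on the log2 scale. With replicates 1 and 3 alone, 39 members were called, all lower, where 18.9% of all genes were called in either direction.

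**Figure D1:**
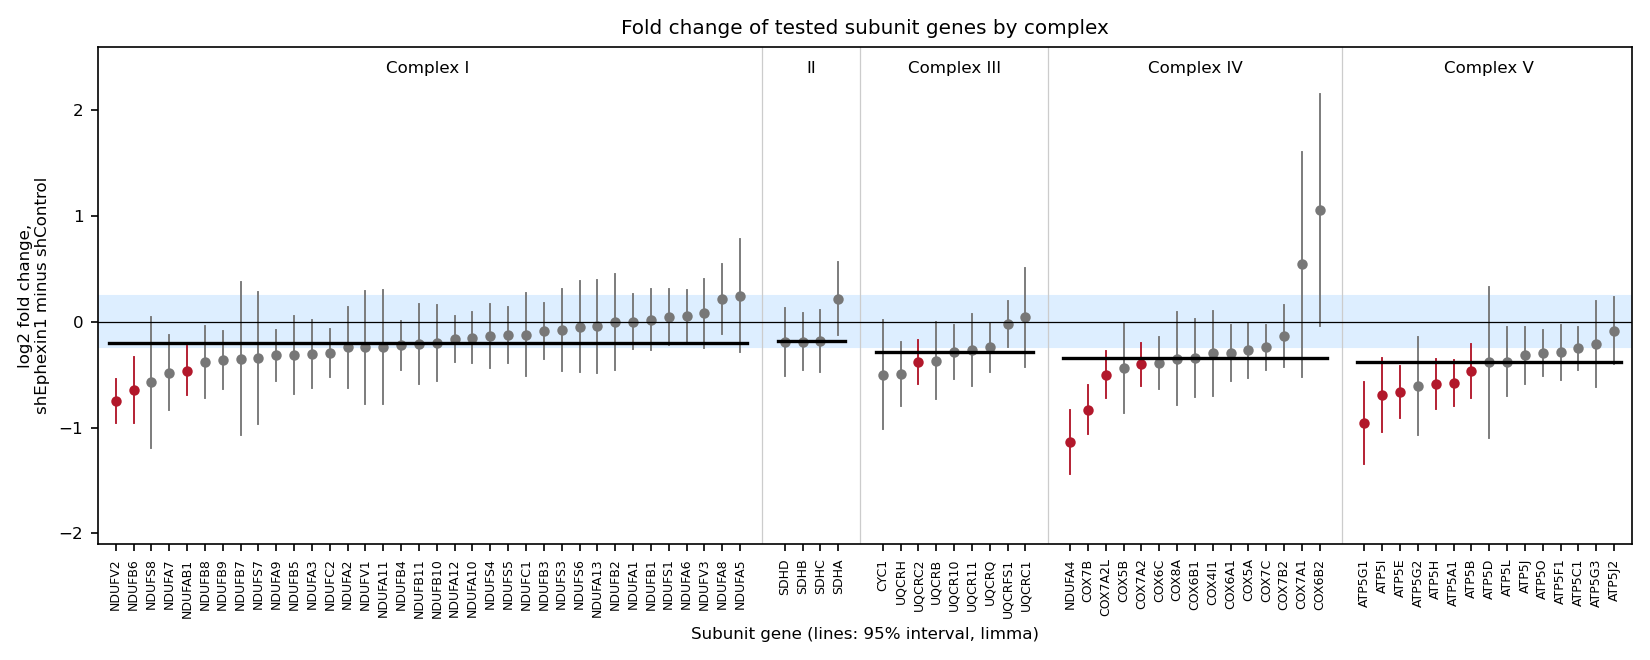
Log2 fold change (shEphexin1 minus shControl) of the tested subunit genes, all but 1 of complex I drawn, sorted within each complex. Points are limma estimates with 95% intervals, red where the adjusted p was at most 0.05, the black bar is the median of the complex and the blue band holds the middle of all genes tested, from the lower to the upper quartile. All 14 red points lie below 0, and each of the 15 points of complex V does too.

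All 5 complexes had a median below 0. The median log2 fold change was -0.20 for complex I (30 of 37 below 0), -0.18 for complex II (3 of 4), -0.28 for complex III (8 of 9), -0.34 for complex IV (13 of 15 tested) and -0.38 for complex V (15 of 15). No test between complexes was made, since genes of a complex are not replicates. After quantile normalization the medians were nearer 0 and their order differed, at -0.076, -0.056, -0.20, -0.067 and -0.24 for complexes I to V, with 25, 3, 7, 9 and 14 genes below 0. The FPKM of all members of a complex, summed within each library without that normalization, followed the order of the first medians. The shEphexin1 mean was 72.1% of the shControl mean for complex V, 77.1% for complex IV, 84.9% for complex III, 86.8% for complex I and 91.1% for complex II. The FPKM totals over all genes were lower in shEphexin1 too, and the sums were not scaled to them. These totals were 558737, 516079 and 587222 in shEphexin1 against 627462, 561335 and 651441 in shControl.

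For complex V the sums were 3585, 3139 and 3727 in the shControl libraries and 2611, 2345 and 2577 in the shEphexin1 libraries. The 2 groups did not overlap, and the lowest library of each group was its replicate 2. For complex IV they were 4348, 3766 and 4578 against 3321, 3004 and 3466, again with no overlap. For complex I they were 3604, 3073 and 3886 against 3111, 2754 and 3302, and here shControl replicate 2 lay below shEphexin1 replicates 1 and 3. Summed over all members, the share of a library's FPKM total was 2.01% to 2.11% in the control libraries and 1.79% to 1.85% in the depleted ones.

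**Figure D2:**
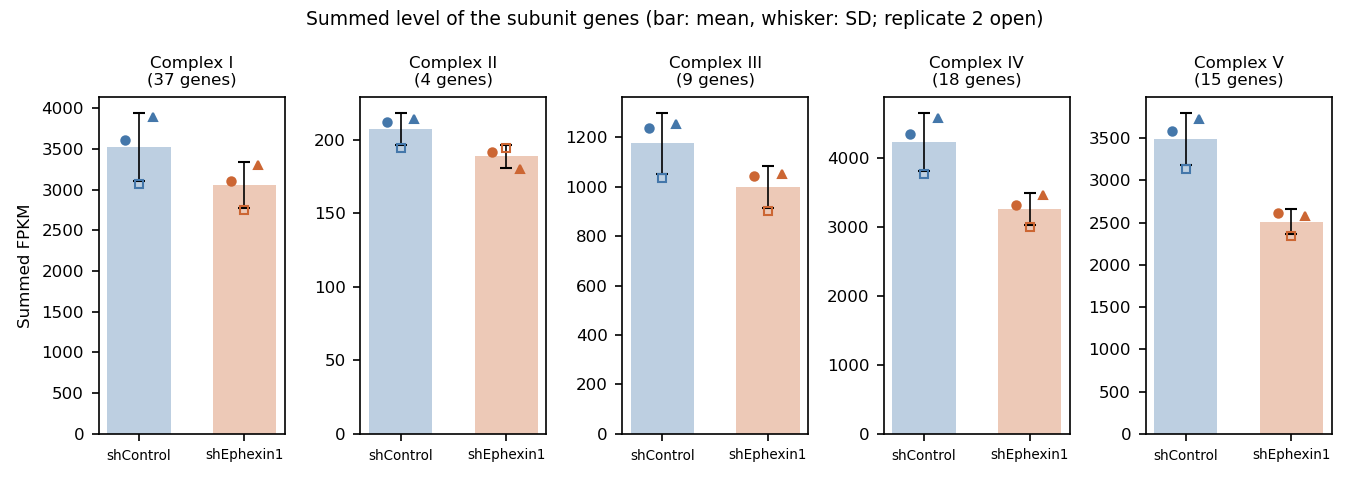
Summed FPKM of the subunit genes of each complex in each library. Bars are group means, whiskers the SD over 3 libraries, and open squares replicate 2. The groups are apart in complexes IV and V, and by a narrow gap in complex II, and overlap in complexes I and III.

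Complex V, the ATP synthase, consists of the catalytic F1 head, the rotating ring of c subunits, the peripheral stalk that holds the head still, and small membrane subunits. All 15 genes had log2 fold changes below 0, 6 fell by the test and 12 had groups that did not overlap. Of all genes tested, 4.32% fell and 15.4% did not overlap downward. Of the 671 genes with a mean of at least 100 FPKM, 116 fell and 41.0% did not overlap downward. Within each pair of libraries of the same number, all 15 were lower in shEphexin1. In the head, the alpha and beta subunits that form the catalytic sites were among the most abundant members. ATP5B, the beta subunit, was measured at 594, 509 and 607 FPKM with the control shRNA and 428, 383 and 423 FPKM with the Ephexin1 shRNA. It fell by 0.47 on the log2 scale (SE 0.11, limma adjusted p = 0.0476), with the highest shEphexin1 library below the lowest shControl library. After quantile normalization its log2 fold change was -0.090 and did not pass (limma adjusted p = 0.522). ATP5A1, the alpha subunit (chr18:43660214-43684300 in GRCh37), was measured at 404, 361 and 411 FPKM with the control shRNA and 268, 257 and 262 FPKM with the Ephexin1 shRNA, a log2 fold change of -0.58 (SE 0.095, limma adjusted p = 0.0175). The shEphexin1 libraries lay close together and well apart from the control libraries.

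ATP5E, the epsilon subunit of the central stalk, was at 340.2 ± 28.1 against 214 ± 12.9 FPKM (SD, n = 3 each; log2 fold change -0.67, limma adjusted p = 0.0152). The gamma subunit ATP5C1 (-0.25) and the delta subunit ATP5D (-0.38) did not pass (limma adjusted p = 0.138 and 0.515). ATP5D had the largest standard error of the complex, 0.30 on the log2 scale, and lay between 75.7 and 144 FPKM in shControl, with replicate 2 lowest in both groups. In the peripheral stalk, ATP5H (subunit d) fell from 209.8 to 139.8 FPKM, a log2 fold change of -0.59 (limma adjusted p = 0.0200). ATP5J, ATP5O and ATP5F1, for coupling factor 6, the oligomycin sensitivity subunit and subunit b, had log2 fold changes of -0.32, -0.30 and -0.29. None of the 3 passed, though in each the groups did not overlap, and ATP5J was the least abundant gene of the complex at 51.3 FPKM in shControl. Of the membrane subunits, ATP5I (subunit e, which takes part in pairing the enzyme into dimers) was measured at 378, 319 and 378 FPKM with the control shRNA and 228, 183 and 259.6 FPKM with the Ephexin1 shRNA. It fell by 0.69 on the log2 scale (limma adjusted p = 0.0377). ATP5J2 (subunit f) had the value nearest 0 in the complex, at 369 ± 52.5 against 347 ± 32.8 FPKM (SD, n = 3 each; log2 fold change -0.085, 95% interval -0.40 to 0.23). Its gene overlaps the read-through ATP5J2-PTCD1, which was listed separately and rose from 3.39 to 7.41 FPKM (limma adjusted p = 0.0371), and the split of reads between them is uncertain.

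The c ring is built from identical mature proteins that 3 genes encode with different import sequences. ATP5G1 (chr17:46970127-46973233 in GRCh37) was measured at 152, 109 and 153 FPKM with the control shRNA and 78.9, 60.9 and 72.9 FPKM with the Ephexin1 shRNA. Its log2 fold change of -0.95 (SE 0.17, limma adjusted p = 0.0205) was the lowest in complex V, and shControl replicate 2, though lower than its companions, stayed above each shEphexin1 library. ATP5G2, the most abundant of the 3, was measured at 366, 268 and 392 FPKM with the control shRNA and 249, 173 and 254 FPKM with the Ephexin1 shRNA. Its groups did not overlap either, but its replicates were spread more widely and it did not pass (log2 fold change -0.61, SE 0.20, limma adjusted p = 0.121). ATP5G3 had 59.4 ± 6.64 against 52.0 ± 12.1 FPKM (SD, n = 3 each; log2 fold change -0.21, limma adjusted p = 0.535). The share of ATP5G1 in the summed FPKM of the c ring genes was 26.4%, 24.6% and 25.5% in the shControl libraries and 21.2%, 20.3% and 19.6% in the shEphexin1 libraries. These did not overlap, and the exact permutation p of 0.1 (two-sided) was the smallest that 3 against 3 allows. The share of ATP5G2 was 63.1% ± 2.59 against 64.2% ± 5.72 (SD, n = 3 each, exact permutation p = 0.7), and that of ATP5G3 was 11.3% ± 3.21 against 15.4% ± 5.71 (exact permutation p = 0.4), with replicate 2 standing above the other libraries in both groups.

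**Figure D3:**
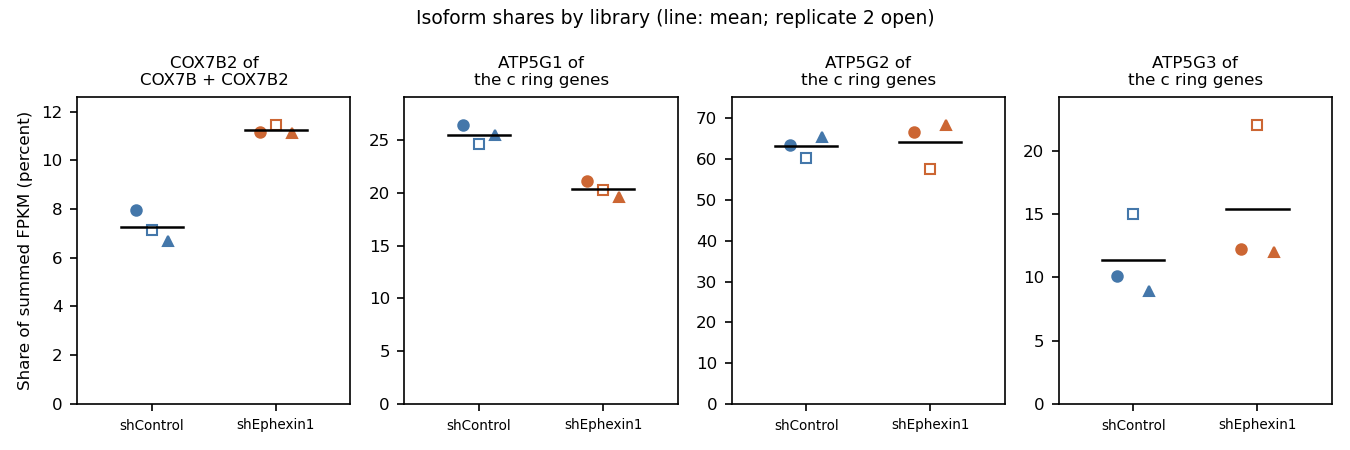
Share of an isoform in the summed FPKM of its isoform group, in percent, for each library, with the group mean as a line and replicate 2 open. COX7B2 is higher and ATP5G1 lower in every shEphexin1 library, while the shares of ATP5G2 and ATP5G3 overlap between groups.

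Complex IV, cytochrome c oxidase, held the member that changed most. NDUFA4 (chr7:10971570-10979780 in GRCh37, on the short arm of chromosome 7) was measured at 80.0, 79.0 and 76.2 FPKM with the control shRNA and 37.3, 40.4 and 30.0 FPKM with the Ephexin1 shRNA. All 3 shEphexin1 libraries lay far below the control libraries, with replicate 3 the lowest, and their mean was 45.8% of that of shControl. The log2 fold change was -1.14 (SE 0.13, limma adjusted p = 0.00497). NDUFA4L2, its paralog known for its response to low oxygen, was listed at 1.29 ± 0.754 against 1.03 ± 0.437 FPKM (SD, n = 3 each; limma adjusted p = 0.888; looked up after the values of NDUFA4 were seen).

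COX7B (chrX:77154937-77162873 in GRCh37) was among the more abundant members and was measured at 409, 413 and 410.0 FPKM with the control shRNA and 221, 256 and 218 FPKM with the Ephexin1 shRNA. The 3 control libraries were nearly level, and the shEphexin1 libraries lay far below them. The log2 fold change was -0.83 (SE 0.10, limma adjusted p = 0.00616). COX7B2, a testis-type isoform of the same subunit, was measured at 35.5, 31.8 and 29.4 FPKM with the control shRNA and 27.8, 33.1 and 27.3 FPKM with the Ephexin1 shRNA, and its groups overlapped (log2 fold change -0.13, 95% interval -0.43 to 0.16, limma adjusted p = 0.585). The share of COX7B2 in the sum of both genes was 7.98%, 7.15% and 6.69% in shControl and 11.2%, 11.4% and 11.1% in shEphexin1 (exact permutation p = 0.1, the smallest possible). COX7A2, the ubiquitous isoform of subunit 7A, was at 207 ± 7.74 against 157 ± 3.57 FPKM (SD, n = 3 each; log2 fold change -0.40, limma adjusted p = 0.0395). COX7A2L fell by 0.50 on the log2 scale (limma adjusted p = 0.0286), from 82.96 to 58.6 FPKM. The muscle isoform COX7A1 was at 2.03 ± 0.939 against 3.07 ± 1.52 FPKM (SD, n = 3 each; limma adjusted p = 0.536).

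The most abundant members of all were COX7C, at 883 FPKM in shControl, and COX6B1, at 798 FPKM, and neither passed the test. COX7C was measured at 906, 839 and 903 FPKM with the control shRNA and 764, 733 and 745 FPKM with the Ephexin1 shRNA. Its groups did not overlap (log2 fold change -0.24, SE 0.091, limma adjusted p = 0.168), but after quantile normalization its log2 fold change was 0.12. The direction of COX6B1 (-0.34) and of COX4I1 (-0.30), a regulatory subunit that contacts the catalytic core, turned in the same way, to 0.0063 and 0.034. COX5A, COX5B, COX6A1, COX6C and COX8A had log2 fold changes between -0.43 and -0.27, none of which passed. Of the other tissue isoforms, COX6A2 was listed at 0 in all 6 libraries, COX4I2 was above 0 in 1 library and COX8C in 2. COX6B2, a testis isoform, had 0.0887 ± 0.0802 against 0.284 ± 0.155 FPKM (SD, n = 3 each) and a log2 fold change of 1.06 on the log2(FPKM + 0.1) scale (limma adjusted p = 0.232). Its share in the sum of COX6B1 and COX6B2 was at most 0.063% in any library.

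**Figure D4:**
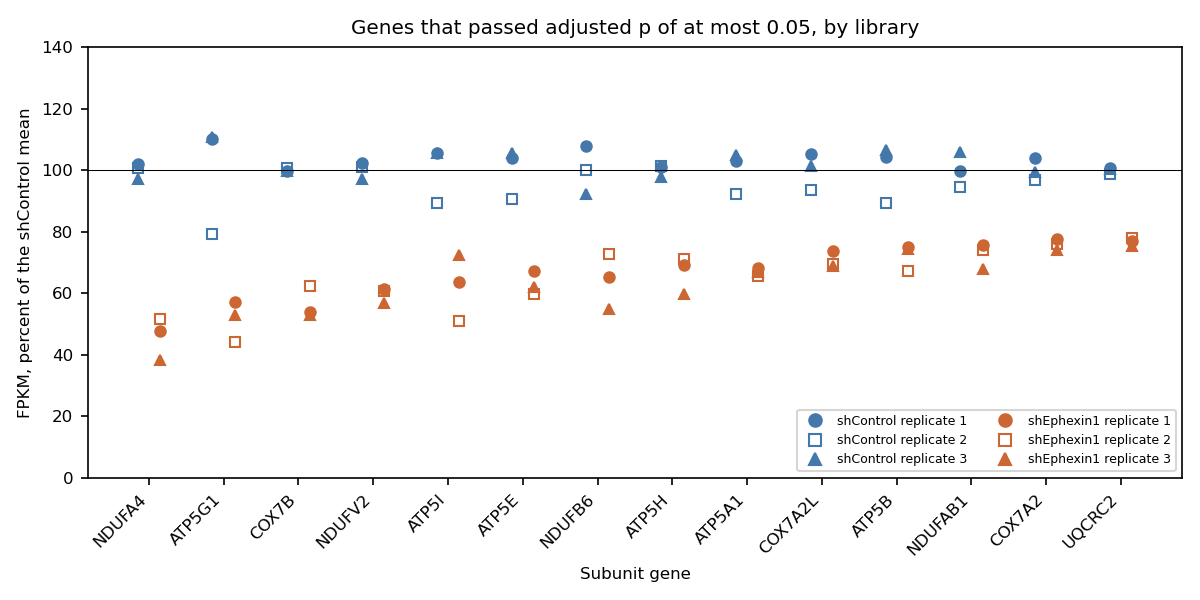
FPKM of the 14 members with a limma adjusted p of at most 0.05 in each library, as a percentage of the shControl mean, in order of log2 fold change. Blue symbols are shControl, orange symbols shEphexin1, and open squares replicate 2. In each gene every orange symbol lies below every blue one.

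In complex I, 3 of 37 genes fell by the test, against 4.32% of all genes tested. NDUFV2, an iron-sulfur subunit of the module that oxidizes NADH (chr18:9102628-9134343 in GRCh37), was measured at 124.6, 122.9 and 118 FPKM with the control shRNA and 74.8, 73.9 and 69.4 FPKM with the Ephexin1 shRNA. The libraries of each group were close to one another and the groups were far apart (log2 fold change -0.75, SE 0.090, limma adjusted p = 0.00616). Its partners in that module did not pass. NDUFV1, which binds FMN, had 79.7 ± 16.8 against 67.8 ± 16.96 FPKM (SD, n = 3 each; limma adjusted p = 0.590), and NDUFS1, the largest iron-sulfur subunit, had 49.5 ± 2.48 against 51.3 ± 5.54 FPKM (limma adjusted p = 0.861). NDUFB6, an accessory subunit of the membrane arm, was measured at 40.3, 37.3 and 34.4 FPKM with the control shRNA and 24.4, 27.1 and 20.4 FPKM with the Ephexin1 shRNA (log2 fold change -0.64, limma adjusted p = 0.0356). NDUFAB1, the mitochondrial acyl carrier protein, was at 74.9 ± 4.29 against 54.3 ± 3.08 FPKM (SD, n = 3 each; log2 fold change -0.46, limma adjusted p = 0.0374).

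The 7 core subunits had a median log2 fold change of -0.24 and the 30 accessory subunits of -0.18. Of the core subunits next to ubiquinone, NDUFS7 (-0.34) and NDUFS8 (-0.57) varied widely between replicates. NDUFS8 was measured at 137, 94.8 and 177 FPKM with the control shRNA and 92.1, 66.6 and 114 FPKM with the Ephexin1 shRNA, with replicate 2 lowest and replicate 3 highest in both groups, and the groups overlapped. NDUFS3 (-0.073) lay nearer 0, and none of these 3 passed. At the other end, NDUFA5 (0.25, 95% interval -0.28 to 0.78) and NDUFA8 (0.21, 95% interval -0.12 to 0.55) had the highest values of the complex. NDUFA5 was the least abundant member of complex I in shControl, at 14.6 FPKM, and NDUFB1 the most abundant, at 250.1 FPKM with no change past the test (0.021). NDUFC2 shares its locus with the read-through NDUFC2-KCTD14, which was listed at 2.39 and 2.55 FPKM.

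Complex II has 4 subunits, all carried in the nucleus, and none passed the limma test, even at an unadjusted p of at most 0.05. The flavoprotein SDHA, which oxidizes succinate, was measured at 23.2, 18.5 and 23.3 FPKM with the control shRNA and 27.2, 21.5 and 27.0 FPKM with the Ephexin1 shRNA, with a log2 fold change of 0.22 (95% interval -0.13 to 0.56). SDHA has near-identical pseudogene copies, and SDHAP1, SDHAP2 and SDHAP3 were listed at 2.13, 1.35 and 3.92 FPKM against 2.16, 1.77 and 6.23 FPKM in the depleted cells, so that the level of SDHA is uncertain by reads that could belong to either. The iron-sulfur subunit SDHB (-0.19) and the membrane anchors SDHC (-0.18) and SDHD (-0.19) were close to one another. SDHD was the most and SDHC the least abundant, at 88.8 and 14.6 FPKM in shControl.

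In complex III, 1 of 9 genes fell by the test, against 4.32% of all genes tested. UQCRC2, core protein 2, was measured at 47.4, 46.5 and 47.3 FPKM with the control shRNA and 36.2, 36.6 and 35.4 FPKM with the Ephexin1 shRNA. The change was small, a log2 fold change of -0.38 (SE 0.089, limma adjusted p = 0.0484), and so was the spread within the groups. Core protein 1, UQCRC1, had 126 ± 23.6 against 130.2 ± 26.7 FPKM (SD, n = 3 each; log2 fold change 0.043, limma adjusted p = 0.930). The redox subunits did not pass. CYC1, cytochrome c1, was measured at 174, 119 and 191 FPKM with the control shRNA and 118, 87.6 and 135 FPKM with the Ephexin1 shRNA and had the lowest log2 fold change of the complex, -0.50, with overlapping groups (limma adjusted p = 0.227). UQCRFS1, the Rieske iron-sulfur protein and the most abundant of the complex, was at 352 ± 17.2 against 347 ± 16.7 FPKM (SD, n = 3 each; log2 fold change -0.020, turning to 0.30 after quantile normalization). UQCRH, the hinge protein, was measured at 301, 239 and 289 FPKM with the control shRNA and 207, 172 and 208 FPKM with the Ephexin1 shRNA, with no overlap (log2 fold change -0.49, limma adjusted p = 0.0665). UQCRB, at 41.7 FPKM in shControl, was the least abundant of the complex (-0.37). The near-identical copy of UQCRH, UQCRHL, took at most 0.426% of the sum of both in each library.

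**Figure D5:**
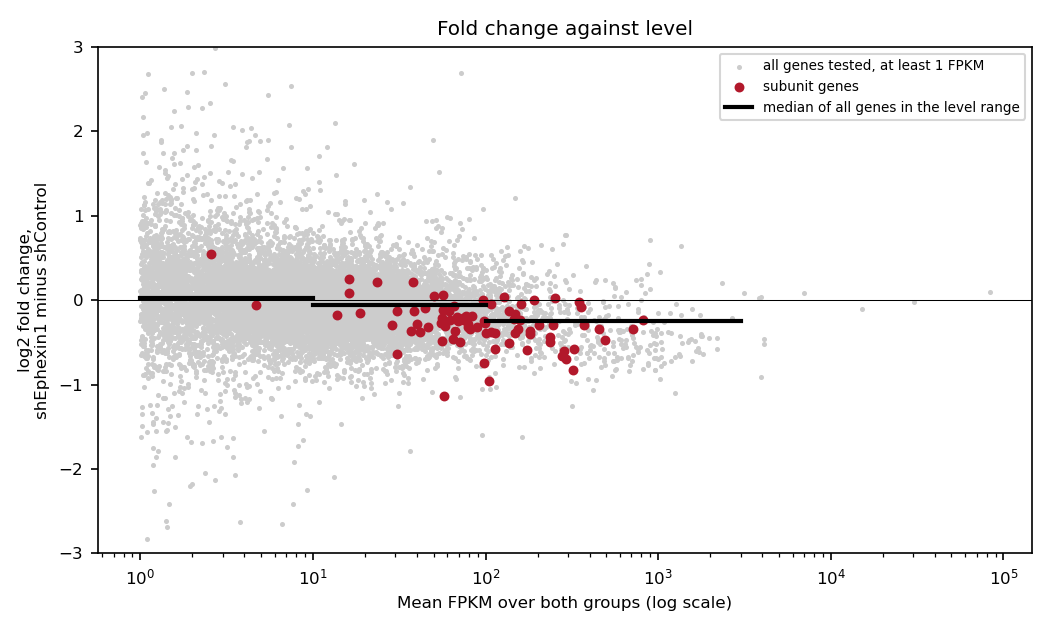
Log2 fold change (shEphexin1 minus shControl) against the mean FPKM of both groups (log scale) for all genes tested with at least 1 FPKM (grey) and the subunit genes among them (red). The black lines are the median of all genes from 1 to 10, 10 to 100 and above 100 FPKM, and the last of these lies at -0.25. Genes beyond 3 on either side of the log2 axis are not drawn.

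Abundant genes as a whole were lower in shEphexin1, and the subunit genes are abundant. Among the 671 genes tested with a mean of at least 100 FPKM, 77.8% had a log2 fold change below 0, with a median of -0.25, and the groups did not overlap, downward, for 41.0%. The 36 members at that level had a median of -0.35, with 33 below 0, and 50% of them did not overlap downward. At a limma adjusted p of at most 0.05, 8 of these 36 members fell, as did 116 of the 671 genes. From 10 to 100 FPKM, the 43 members had a median of -0.24 and 37 were below 0, whereas the 6013 genes tested had a median of -0.061 and 59.6% below 0. In this range 6 of the 43 members and 265 of the 6013 genes fell at that adjusted p. After quantile normalization, which gives each library the same distribution of values, the genes of at least 100 FPKM had a median of -0.035 and the members among them of -0.15. With correction for GC content and transcript length instead, these medians were -0.17 and -0.18, close to each other. The part that level plays in the members' values was not tested.

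The position of a member on the chromosomes went with its value in some cases. Over the genes measured at 1 FPKM or more, chromosome arm medians of the log2 fold change stood at -0.46 on 18p, where NDUFV2 lies, at -0.44 on 18q, where ATP5A1 lies, at -0.25 on 7p, where NDUFA4 lies, and at 0.30 on 7q, which holds NDUFA5, NDUFB2 and ATP5J2. The medians were also low on 12p (-0.43), which holds NDUFA9 (-0.32), and on 10q (-0.30), which holds NDUFB8 (-0.38). On 5p the median was -0.245, but its members SDHA (0.22) and NDUFS6 (-0.045) were not as low. Arm medians for other called members were -0.22 on 20q (ATP5E), -0.21 on 17q (ATP5G1 and ATP5H) and -0.20 on 4p (ATP5I). They were -0.17 on 12q (ATP5B) and on 9p (NDUFB6), and -0.12 on Xq (COX7B). On 16p (NDUFAB1 and UQCRC2), 6q (COX7A2) and 2p (COX7A2L) they were -0.063, -0.014 and 0.017. With the median of its arm subtracted, the log2 fold change was -0.26 for NDUFV2 (limma adjusted p = 0.1001) and -0.15 for ATP5A1 (limma adjusted p = 0.495), and neither passed. ATP5B, ATP5H, ATP5I, COX7A2, NDUFAB1, NDUFB6 and UQCRC2 no longer passed either. The log2 fold change of SDHA became 0.50 (limma adjusted p = 0.156). NDUFA4 (-0.89), COX7B (-0.68), ATP5G1 (-0.74), ATP5E (-0.45) and COX7A2L (-0.53) still passed, with limma adjusted p of 0.00857, 0.00611, 0.00810, 0.0173 and 0.0189. In that fit 8 members were called, all lower, of which 5 were among the 14, and 6.63% of all genes were called in either direction. The part that position plays in the members' values was not tested.

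The promoters of the members were read from RefSeq (GRCh38.p14), from 250 bases before to 50 bases after the annotated start, and 68 of 87 members had an entry. The letters CGCATGCG, the core of the site of nuclear respiratory factor NRF1, stood in 14.7% of member promoters and 2.19% of the 27305 promoters in the table. CCGGAAG, the core of sites of the ETS factor GABP, stood in 27.9% and 10.7%, and AAGATGGC, the core of YY1 sites, in 16.2% and 3.03%, on either strand. Of the tested members with an entry, 33 held at least 1 of these motifs and had a median log2 fold change of -0.29, and 33 held none and had a median of -0.24. Of the 12 called members with an entry, 2 held a motif, ATP5I and ATP5H, where 48.5% of the 68 members and 14.7% of all promoters held at least 1. The bases before the start of these genes are shown with the motif in capitals, because they are the called members in which it was found. ATP5I is shown at chr4:674277-674396 and ATP5H at chr17:75046970-75047090 of GRCh38.p14, both on the minus strand and written 5′ to 3′ along the gene. In ATP5I the capitals mark the NRF1 core, and in ATP5H the GABP core as read on the other strand. ATP5I held a GABP core as well, after its start, which is not shown.
ATP5I: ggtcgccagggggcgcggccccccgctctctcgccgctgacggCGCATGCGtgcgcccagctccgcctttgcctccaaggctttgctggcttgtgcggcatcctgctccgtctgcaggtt
ATP5H: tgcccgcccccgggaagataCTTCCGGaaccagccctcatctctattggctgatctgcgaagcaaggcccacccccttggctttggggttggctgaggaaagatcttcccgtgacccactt

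The factors that build the complexes showed few changes past the test, where 4.32% of all genes tested fell, 2.69% rose and 51.1% were below 0. The median log2 fold change was -0.24 for the complex I factors and -0.23 for the complex IV factors. The groups did not overlap, downward, for 5 and 10 of them, against 15.4% of all genes. Of 19 assembly factors of complex I, 16 were below 0 and 1 fell by the test, TMEM261 (now DMAC1), needed for the distal part of the membrane arm, at 15.8 ± 0.500 against 9.27 ± 1.79 FPKM (SD, n = 3 each; log2 fold change -0.78, limma adjusted p = 0.0312). NDUFAF1 had the highest value of that list (0.32, limma adjusted p = 0.200) and C17orf89 the lowest (-0.80, limma adjusted p = 0.191). Of 25 assembly factors of complex IV, 22 were below 0 and 1 fell, COX11, which delivers copper to the oxidase. COX11 was measured at 31.4, 33.4 and 32.9 FPKM with the control shRNA and 18.4, 20.1 and 17.1 FPKM with the Ephexin1 shRNA (log2 fold change -0.81, limma adjusted p = 0.00839), with the groups far apart. Of the 4, 6 and 5 factors for complexes II, III and V, 3, 4 and 4 were below 0 and none passed by limma, with 1, 0 and 1 at an unadjusted p of at most 0.05. Of 14 genes of ubiquinone synthesis and cytochrome c, 10 were below 0, 5 had an unadjusted limma p of at most 0.05 and none passed after adjustment. At that unadjusted p, 12.8% of all genes were lower and 10.5% higher. The lowest values of these 4 lists, in that order, were those of SDHAF1 (-0.34), UQCC3 (-0.32), ATPAF1 (-0.41) and COQ5 (-0.59), and the highest those of SDHAF2 (0.092), BCS1L (0.22), TMEM242 (0.11) and COQ10B (0.083). The highest value among the complex IV factors was that of COX18 (0.084).

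Among 24 genes of the tricarboxylic acid cycle and pyruvate dehydrogenase, 19 were below 0, 1 fell and 1 rose by the test. Of all genes tested, 51.1% were below 0, 4.32% fell and 2.69% rose. CS, citrate synthase, fell, at 116 ± 2.05 against 90.04 ± 0.393 FPKM (SD, n = 3 each; log2 fold change -0.36, limma adjusted p = 0.0484). IDH2, the NADP-dependent mitochondrial isocitrate dehydrogenase, was measured at 4.19, 2.93 and 4.09 FPKM with the control shRNA and 7.55, 6.86 and 8.60 FPKM with the Ephexin1 shRNA and rose by 1.03 on the log2 scale (limma adjusted p = 0.0205). Of the kinases that inactivate pyruvate dehydrogenase, PDK4 had the highest value of the list (1.12, from 0.236 to 0.642 FPKM, limma adjusted p = 0.0920) and PDK3 the lowest (-0.83, from 3.01 to 1.68 FPKM, limma adjusted p = 0.0529), and neither passed. Of 23 regulators of mitochondrial biogenesis, 15 were below 0 (51.1% of all genes), 1 fell by the test (4.32%) and 0 rose (2.69%). The gene that fell was ESRRG, an orphan nuclear receptor, with a mean of 0.288 FPKM against 0.0177 FPKM in the depleted cells (log2 fold change -1.72, limma adjusted p = 0.0253). ESRRG was near the floor and passed the filter only through its shControl libraries (0.362, 0.245 and 0.256 FPKM, against 0.0348, 0 and 0.0183 FPKM). Its fold change therefore depends on the 0.1 FPKM added before the logarithm. PPARGC1A, the coactivator PGC-1alpha, had the highest value of the list, 0.46 (limma adjusted p = 0.249).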

How the data were processed

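RNA-seq was performed on total RNA of H1299 cells, with 3 libraries per shRNA and a stranded kit. The authors aligned reads to GRCh37 with TopHat2 2.0.13 and deposited FPKM values from Cuffdiff in Cufflinks 2.2.1 with geometric library normalization (versions per the submitters' notes and methods), which normalize for length and library size and keep no counts. The aligner's treatment of reads with several positions is not given in the sources used here.

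Groups were taken from the labels. A gene was tested when 3 or more of the 6 libraries reached 0.1 FPKM, with limma 3.58.1 (R 4.3.3; eBayes with trend) on log2(FPKM + 0.1), with Benjamini-Hochberg adjustment over all genes tested. Fold changes on this scale understate those of low genes. Single values were compared with two-sided exact permutation tests. Positions, lengths and GC content came from GENCODE annotation lifted to GRCh37, and promoters from RefSeq, taking the first entry of each symbol. Members and gene lists were chosen with earlier results of these data known. Full values were given for members with an adjusted p of at most 0.05, the highest and lowest fold change and level of each complex, isoform pairs, and the called and extreme genes of each list. Alternatives comprised 19 settings of pseudocount, filter, scaling, model, correction and libraries. Values of some genes are not reported here.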

Additional observations from a re-analysis of the deposited data

How the results depend on the processing

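The median log2 fold change of the members and of each complex stayed below 0 in all 19 alternatives. The number of members past an adjusted p of at most 0.05 (14) was 5 after quantile normalization (5.67% of all genes), 7 with eBayes without trend (5.69%), 8 with chromosome arm medians subtracted (6.63%), 36 after correction for GC content and length (33 lower, 3 higher, 32.9% of all genes) and 39 with replicates 1 and 3 alone (18.9%), and ranged from 0 to 14 without single libraries. The number past 0.025 and 2-fold (1) was 0 with arm medians subtracted and 2 with replicates 1 and 3 alone, and ranged from 0 to 2 without single libraries. The number with groups that do not overlap (36 in all) was 69 with replicates 1 and 3 alone (62.2% of all genes, against 28.3% with all libraries). Without single libraries it ranged from 37 (without shControl replicate 1, 32.0% of all genes) to 57 (without shControl replicate 2, 42.5%). Without shEphexin1 replicate 2 it was 47 (47.4%). Fewer libraries overlap less by construction.

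The median over all members (-0.28) was -0.11 after quantile normalization and -0.15 after GC and length correction. In these 2 settings 61 and 60 of the 84 members were below 0 (49.6% and 48.6% of all genes), against 72 in the main fit. In complex I, 22 of 37 genes were below 0 after GC and length correction, against 30 in the main fit. After GC and length correction, the medians were -0.058 for complex I, -0.071 for complex II, -0.18 for complex III and -0.16 for complex IV. After quantile normalization they were -0.076 for complex I, -0.056 for complex II, -0.067 for complex IV and -0.24 for complex V, and with replicates 1 and 3 alone complex III had -0.38. Without single libraries, the medians ranged from -0.28 (without shControl replicate 2) to -0.11 (without shEphexin1 replicate 2) for complex I, from -0.19 to -0.070 for complex II, from -0.42 to -0.23 for complex IV and from -0.55 to -0.40 for complex V. The cause of these shifts was not tested.

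With the replicate number as a block, 55 members passed (53 lower, 2 higher, where 33.5% of all genes passed), and 47 did with GC and length correction as well (40 lower, 7 higher, 37.0% of all genes), with the medians of that correction as given. Among those that passed with the block alone were COX6B1 (limma adjusted p = 0.00167) and COX7C (0.00655), both lower, and SDHA (0.0164) and NDUFA8 (0.0131), both higher. The deviations of same-numbered libraries correlated at 0.091, 0.43 and 0.33 over all genes tested and at 0.668, 0.699 and 0.886 over the members for replicates 1, 2 and 3. Since 1 of the values over all genes was below 0.1 and the labels name no shared batch, the numbers were not taken to pair the libraries, although each of the 6 libraries correlated best with its own number.

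Of the values of the 14 called genes under the alternatives, 180 stayed past the threshold and 86 did not, and none of them changed sign. Library depth is unknown, so counting error could not be set against these differences, and 3 libraries a group allow no exact p below 0.1.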

Other observations

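Some complex V subunits have names that the naming rule does not take, and were looked up after the other values were seen. USMG5, a membrane subunit that takes part in dimer formation, was measured at 235, 233 and 240.4 FPKM with the control shRNA and 156, 191 and 155 FPKM with the Ephexin1 shRNA. Its groups did not overlap, and it fell by 0.50 on the log2 scale (SE 0.11, limma adjusted p = 0.0403). C14orf2, a small proteolipid of the enzyme, had 242 ± 11.1 against 209 ± 13.4 FPKM (SD, n = 3 each) and did not pass (log2 fold change -0.21, limma adjusted p = 0.235).

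Antisense transcripts of 3 members were listed at low levels. NDUFB2-AS1 had 0.571 ± 0.156 against 1.15 ± 0.205 FPKM (SD, n = 3 each; limma adjusted p = 0.0763), with each shEphexin1 library above each shControl library, while NDUFB2 itself did not differ between the groups past the test. NDUFV2-AS1 and NDUFA6-AS1 overlapped between the groups. The counting is not stated to have used strand, so reads of these genes and their partners cannot be told apart with certainty.

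Across 81 members of at least 1 FPKM, the log2 fold change was lower at higher mean FPKM (Spearman's rho -0.36, against -0.20 across 12211 genes of at least 1 FPKM). It showed rho of 0.017 with GC content and -0.046 with transcript length, against 0.13 and 0.12 across the 12211 genes. These describe genes measured in the same 6 libraries. The members' median transcript length was 804 bases, against 3157 over all genes of at least 1 FPKM.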
